A study of Mus musculus with 14 samples.

Results

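The adhesion receptor genes described here are the integrin alpha chains, the integrin beta chains, the numbered cadherins and the protocadherins. They comprised 74 probes of 67 genes, out of 21582 probes and 15094 genes with a single symbol on the array. Members were taken by symbol alone, from probes whose only symbol in the platform annotation was Itga, Itgb, Cdh or Pcdh followed by a chain number or chain letter. The integrin alpha class held 16 probes of 14 genes, the integrin beta class 7 probes of 7 genes, the cadherins 22 probes of 19 genes and the protocadherins 29 probes of 27 genes. All 74 probes matched a current RefSeq gene by gene number under an unchanged symbol, and all 74 had enough values to be tested.

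The RNA came from C57Bl6 mouse fetuses taken by caesarean section on gestational day 19. In the alcohol-fed group (n = 7) the dams were exposed to ethanol at about 180 to 200 mg/dl over gestational days 15 to 18. In the pair-fed group (n = 7) they were given maltose dextrin (also written maltose dextrose in the labels) in place of ethanol. Each array carried one sample in Cy5 and, in Cy3, the same pool of RNA of 7 animals with free access to food and water, and this pool served as the reference of every array and as the only untreated control. The length of ethanol exposure is 4 days in the protocol and 5 in the titles. Which tissue was taken is not given here, and so no labelled cell type could be checked. Whether the 7 samples of each group represent different litters is not labelled, so p-values reflect only the spread among samples, which could be technical.

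Integrins are transmembrane heterodimers of 1 alpha and 1 beta chain that bind extracellular matrix proteins or counter-receptors on other cells and link them to the actin cytoskeleton. Classical cadherins join neighbouring cells through calcium-dependent binding between like molecules and are anchored inside the cell by catenins. Protocadherins are a large branch of the same superfamily with weak adhesive activity, and the alpha, beta and gamma protocadherins of the gene clusters give neurons combinations of surface labels. In the late fetus these families take part in tissue layering, vessel formation, blood cell homing and the wiring of the brain.

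Each value is a log2 ratio, read as sample over reference pool, with the median of each array set to 0. This direction is likely from the channel order but is not stated. Every array had placeholder values (0, or the highest value in the table), at 2.57% to 14.6% of probes, and these were treated as missing. The 14 arrays correlated with each other at 0.257 to 0.692 over all probes. No intensity was used, so it is unknown which probes lay above background, and levels of different probes were not compared. In RNA of mixed cells, fewer cells of a type and less RNA per cell cannot be told apart.

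No integrin, cadherin or protocadherin passed the test between alcohol-fed and pair-fed fetuses. Of the 74 probes, 0 were called at a limma adjusted p under 0.05, against 0 of the 20876 probes tested (0%). At an unadjusted limma p under 0.05 there were 6 member probes (8.11%), against 881 of all probes (4.22%). They were 3 integrin alpha probes, 1 cadherin probe and 2 protocadherin probes, and none of the integrin beta chains. No member had groups that did not overlap, against 24 of all probes (0.115%).

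The median size of the difference between the groups, whatever its sign, was 0.34 on the log2 scale over the members and 0.36 over all probes. With its sign kept, so that opposite differences cancel, the median of alcohol-fed minus pair-fed was 0.13 over the members and 0.01 over all probes. By class it was -0.01 for integrin alpha, 0.37 for integrin beta, 0.22 for cadherins and 0.07 for protocadherins. A difference of more than 1 on the log2 scale in either direction was seen at 12 member probes, of which 3 were integrin alpha, 3 cadherin and 6 protocadherin. The same count was not made over all probes. The median 95% interval of a member reached 1.09 to each side.

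Itga4, the alpha chain that pairs with Itgb1 or Itgb7 and binds Vcam1 and fibronectin, differed most by p among the members. Its log2 ratio ran from -2.10 over a median of -0.90 to -0.21 on the alcohol-fed arrays. On the pair-fed arrays it ran from -5.49 over -3.27 to -1.65. All 14 arrays were below the reference, the pair-fed ones lower, and the groups overlapped through a single array on each side, alcohol-fed array 7 and pair-fed array 4. The difference was 2.29 ± 0.50 (SE; 95% interval 1.25 to 3.34, 4.90-fold), which ranked 3 of 20876 probes by p, with a limma adjusted p of 0.9996. Over 24 other settings it lay between 1.93 and 2.57, and the lowest adjusted p (limma) was 0.515.

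Itga9, the alpha chain known for its part in lymphatic valves, went the other way. It ran from -2.72 over -0.50 to 0.33 on the 6 alcohol-fed arrays with a value and from -0.65 over 0.89 to 3.19 on the 7 pair-fed arrays. Only 1 alcohol-fed array lay above the reference, and only 1 pair-fed array below it. The difference was -2.28 ± 0.68 (SE; 95% interval -3.72 to -0.85), with a limma adjusted p of 0.9996. Itga4 and Itga9 are close relatives among the alpha chains, and their differences had opposite signs here.

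Promoter sequences of both genes are shown because they are the members with the largest differences between the groups, together with that of Cdh9, the member farthest from the reference. Each is the first 250 bases of a promoter matched to the gene by gene number (assembly GRCm38.p6), written 5′ to 3′. Matches to CAGGTG (the E-box form bound by Snail and Zeb repressors), TATAAA (the TATA box) or GGGCGG (the GC box) on either strand are in capitals. Some genes have more than 1 promoter, and the distance of these stretches from the start of the gene was not checked.
Itga4, chr2:79255176-79255425, + strand: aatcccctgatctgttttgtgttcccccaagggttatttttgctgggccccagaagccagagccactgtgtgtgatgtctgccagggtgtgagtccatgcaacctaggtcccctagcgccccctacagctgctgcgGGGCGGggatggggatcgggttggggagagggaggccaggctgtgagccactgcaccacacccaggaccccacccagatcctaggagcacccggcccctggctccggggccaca
Itga9, chr9:118711442-118711691, + strand: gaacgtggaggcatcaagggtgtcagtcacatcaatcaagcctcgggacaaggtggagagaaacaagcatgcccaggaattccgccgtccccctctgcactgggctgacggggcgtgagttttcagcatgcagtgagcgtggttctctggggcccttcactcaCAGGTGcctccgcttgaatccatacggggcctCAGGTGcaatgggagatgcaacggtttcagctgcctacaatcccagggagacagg
Cdh9, chr15:16728665-16728914, + strand: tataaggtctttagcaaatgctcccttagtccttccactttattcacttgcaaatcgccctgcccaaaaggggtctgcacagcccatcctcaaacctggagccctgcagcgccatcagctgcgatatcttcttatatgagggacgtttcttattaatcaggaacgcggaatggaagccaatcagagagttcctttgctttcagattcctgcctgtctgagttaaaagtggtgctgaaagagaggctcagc
The Itga4 stretch (64% GC) held 1 match to the GC box, the Itga9 stretch (58.4% GC) 2 matches to the E-box, and the Cdh9 stretch (48% GC) none of these motifs. The table of promoter sequences matched 31 of the 67 genes, with 34 promoters. The GC box was found in 15 of these 34 (44.12%) and in 32.74% of all 32851 promoters. The E-box was found in 5 (14.71%, against 17.22% of all) and the TATA box in 2 (5.882%, against 12.37% of all). A match describes the letters only.

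The other members with an unadjusted limma p under 0.05 were Pcdhb7, Cdh5, a probe of Itgav and Pcdhb3. Pcdhb7, a clustered beta protocadherin, ran from -2.80 over -1.62 to -0.65 in alcohol-fed and from -1.28 over -0.21 to 1.33 in pair-fed samples, a difference of -1.57 ± 0.51 (SE). Cdh5, the VE-cadherin of endothelial junctions, ran from -2.30 over -0.36 to 0.60 and from -0.25 over 0.98 to 1.97, a difference of -1.57 ± 0.56 (SE). For both genes the alcohol-fed samples lay mostly below the pair-fed ones, with overlapping groups.

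Of the other 9 endothelial markers, none had an unadjusted limma p under 0.05 between the groups, and the median difference over the 11 probes of the list, Cdh5 included, was -0.04. The third probe of Itgav, the alpha chain of the vitronectin receptors, differed by 1.20 ± 0.52 (SE), while its other probes differed by -0.24 ± 0.47 and -0.45 ± 0.41. Pcdhb3 differed by -1.02 ± 0.48 (SE). Past this threshold, Pcdhb20 (1.43 ± 0.72), Itgae (-0.94 ± 0.49), Pcdhb8 (1.30 ± 0.71) and Pcdha6 (1.40 ± 0.83) completed the 10 smallest p-values. Without pair-fed array 6 the Pcdhb8 difference was 0.52, and without pair-fed array 7 that of Pcdha6 was 0.93. The adjusted p (limma) was 0.9996 for each of these 8 probes.

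**Figure D1:**
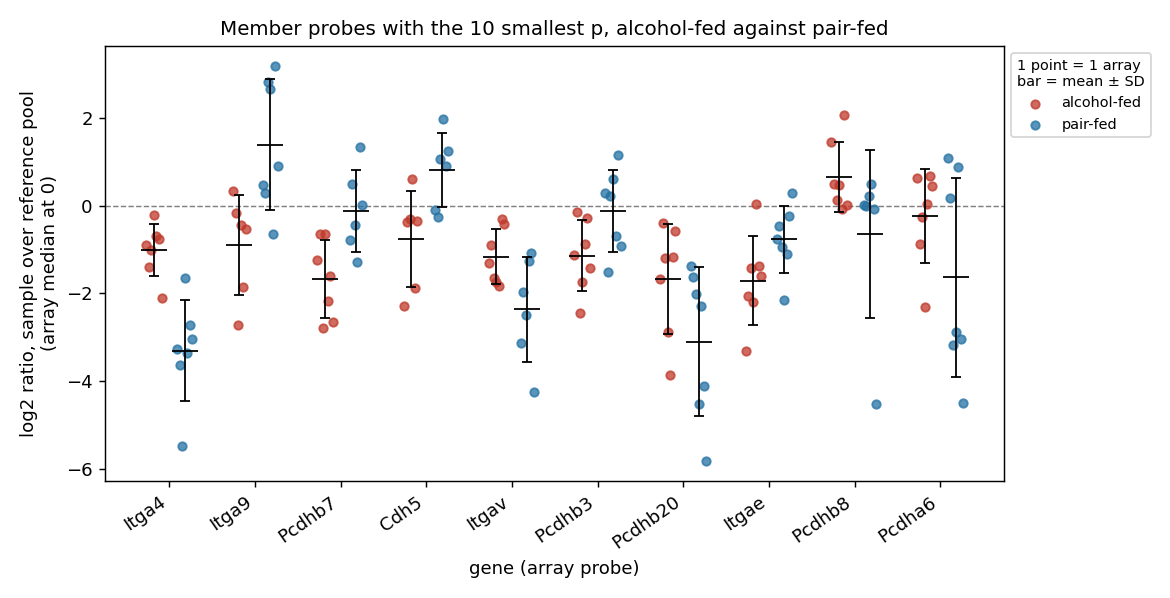
Log2 ratio (sample over reference pool, y axis) of the 10 member probes with the smallest p between alcohol-fed and pair-fed arrays (x axis, in order of p). Each point is an array and bars are the mean ± SD. Itga4 is lower in the pair-fed arrays (median -3.27 against -0.90) and Itga9 higher (0.89 against -0.50), and every gene has overlapping groups.

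Against the reference pool the members were called more often than all probes, by a margin that depended on the scaling. In alcohol-fed samples 25 of 74 probes (33.8%) passed the limma test, 6 higher and 19 lower than the pool, where 23.5% of all probes were called, 8.02% higher and 15.5% lower. In pair-fed samples 26 probes (35.1%) passed, 7 higher and 19 lower, where 21.3% of all probes were called, 7.86% higher and 13.5% lower. The median log2 ratio of the members was -0.25 in alcohol-fed and -0.16 in pair-fed samples, beside 0.01 and -0.03 over all probes. Both comparisons use the same single pool, whose own spread is left out, and without a dye swap a dye effect cannot be told apart from a difference. Each comparison's values are therefore given side by side.

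The direction of the calls among all probes moved with the scaling and with the filter on missing values. Of all calls 34.1% were higher in alcohol-fed samples, against 44.2% with the values as deposited, 48.7% with quantile normalization and 50.3% over probes with a value on all arrays. In pair-fed samples these shares were 36.9%, 47.5%, 48.4% and 51.2%. Among the members' calls the share that was higher went from 24% to 33.3%, 26.1% and 27.3% in alcohol-fed samples and from 26.9% to 33.3%, 30.4% and 28.6% in pair-fed samples. With the values as deposited, 18 and 21 of the 74 members were called in alcohol-fed and pair-fed samples, beside 21.1% and 18.7% of all probes. With quantile normalization 23 of the 74 members were called in each group, beside 28.5% of all probes in alcohol-fed and 23% in pair-fed samples. Under both of these scalings the excess of the members was smaller in each group, and it was small in alcohol-fed samples.

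The calls of each class are given beside those of all probes. Of all probes 23.5% were called in alcohol-fed samples (8.02% higher, 15.5% lower) and 21.3% in pair-fed samples (7.86% higher, 13.5% lower). Integrin alpha had 0 higher and 6 lower calls in alcohol-fed and 1 higher and 6 lower in pair-fed samples (37.5% and 43.8% called). Integrin beta had 0 higher and 2 lower in each (28.6%). Cadherins had 4 higher and 5 lower in each (40.9%), and protocadherins 2 higher and 6 lower in each (27.6%). The median log2 ratios of these classes were -0.76, -0.25, -0.13 and -0.23 in alcohol-fed and -0.08, -0.39, -0.38 and -0.12 in pair-fed samples. These counts are a description, and differences between the classes were not tested.

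The spread between arrays was similar in each class. The median SD of a probe was 0.78 for integrin alpha, 0.95 for integrin beta, 0.82 for cadherins and 0.86 for protocadherins in alcohol-fed samples. In pair-fed samples it was 0.84, 0.92, 1.04 and 0.90. The class medians of single arrays ran from -0.79 to 0.13 for integrin alpha, from -0.52 to 0.71 for integrin beta, from -0.85 to 0.22 for cadherins and from -0.41 to 0.12 for protocadherins across the alcohol-fed arrays. Across the pair-fed arrays they ran from -0.94 to 0.11, from -1.30 to -0.11, from -1.01 to 0.56 and from -0.53 to 0.22. Integrin beta was below 0 on every pair-fed array, and the other classes lay on both sides of 0 in each group.

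**Figure D2:**
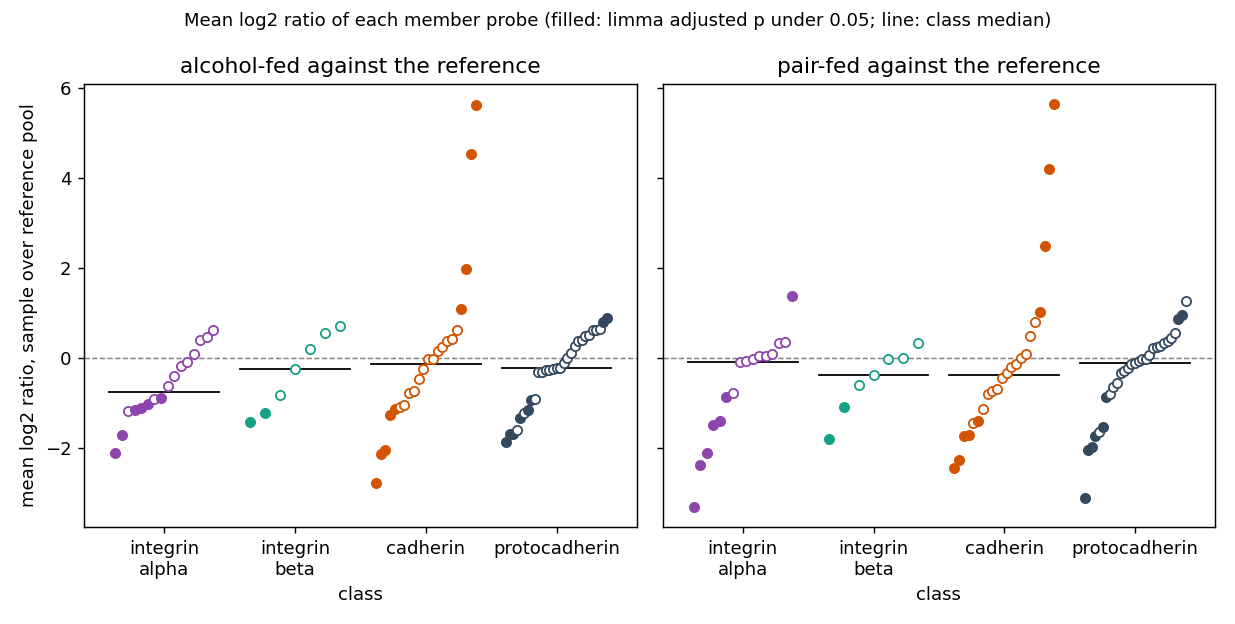
Mean log2 ratio against the reference pool (y axis) of each member probe by class (x axis) in alcohol-fed (left) and pair-fed (right) samples, with filled points for a limma adjusted p under 0.05 and lines for class medians. Cdh9 and Cdh3 stand above all other members at 5.61 and 4.54 in alcohol-fed and 5.65 and 4.20 in pair-fed samples, and most other filled points are below 0.

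Among the integrin alpha chains, Itga2, the collagen receptor chain of platelets and epithelia, was lower in both groups. It ran from -3.27 over -2.18 to -1.13 on 6 alcohol-fed arrays and from -3.48 over -2.31 to -0.28 on 6 pair-fed arrays, below the reference on each. Its mean was -2.12 ± 0.39 (SE) in both groups (limma adjusted p = 0.00129 and 0.00137). Itga6, a laminin receptor chain of epithelia and stem cells, was lower at -0.89 ± 0.30 and -0.88 ± 0.30 (adjusted p = 0.037 and 0.0431, limma). The Itga6 call was lost without alcohol-fed array 1, 2, 4, 6 or 7 (0.0591 to 0.0977) in alcohol-fed samples, and in pair-fed samples without any of 8 arrays, alcohol-fed 2 and 4 and pair-fed 1 and 3 to 7 (0.0508 to 0.109). The platelet marker list held 5 measured genes, of which Pf4 alone fell, at -1.94 ± 0.61 and -2.15 ± 0.61 (SE). Its part in the Itga2 values was not tested.

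Several of the chains that were lower are known from leukocytes, a grouping made after the values were seen and therefore given without a test. Itgam, the alpha chain of Mac-1 on myeloid cells, ran from -2.65 over -0.89 to -0.27 in alcohol-fed and from -1.93 over -1.26 to -1.01 in pair-fed samples, below the reference on all 14 arrays. Its means were -1.11 ± 0.27 and -1.39 ± 0.27 (SE; limma adjusted p = 0.00833 and 0.00179). Itgae, the partner of Itgb7 on intraepithelial lymphocytes, was lower in alcohol-fed samples at -1.71 ± 0.35 (adjusted p = 0.00203, limma) and stood at -0.77 ± 0.35 in pair-fed samples (adjusted p = 0.116). Itgax, the chain of dendritic cells, was lower in pair-fed samples at -1.49 ± 0.50 (adjusted p = 0.0433, limma) and stood at -1.18 ± 0.50 in alcohol-fed samples (adjusted p = 0.0951).

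Itga4 against the reference was -1.02 ± 0.35 (SE) in alcohol-fed samples (limma adjusted p = 0.0439) and -3.31 ± 0.35 in pair-fed samples (2.49e-06). Itgal, the alpha chain of LFA-1, lay near 0 at -0.08 ± 0.31 and -0.02 ± 0.31. The beta chain shared by Itgal, Itgam and Itgax, Itgb2, ran from -3.60 over -0.87 to -0.07 in alcohol-fed and from -2.10 over -1.37 to 0.24 in pair-fed samples. Its means were -1.23 ± 0.38 and -1.08 ± 0.38 (adjusted p = 0.0262 and 0.0499, limma). Itgb7, the partner of Itga4 and Itgae, was lower at -1.42 ± 0.41 and -1.79 ± 0.41 (adjusted p = 0.02 and 0.0055, limma). Of these 7 chains, 5 were lower in each group (71.4%), with a median log2 ratio of -1.18 and -1.39. Over all probes 15.5% and 13.5% were lower. Because the chains were grouped after their values were seen, the shares cannot be weighed against each other.

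Markers of leukocytes were measured beside them. Of 10 measured genes of that list, 4 fell and 0 rose in alcohol-fed samples (Il7r, Cd4, Cd68 and Adgre1) and 4 fell and 0 rose in pair-fed samples (Il7r, Ptprc, Adgre1 and Cd68). Il7r, the interleukin 7 receptor of lymphoid cells, stood at -3.75 ± 0.37 and -3.25 ± 0.37 (SE; limma adjusted p = 8.53e-07 and 5.23e-06). The median of the list's probes on single arrays ran from -1.32 to 0.07 in alcohol-fed and from -1.02 to 0.16 in pair-fed samples. Their part in the integrin values was not tested. With no intensities used, it is unknown which of these markers were detected. For this and the other marker lists, the shares over all probes were 8.02% higher and 15.5% lower in alcohol-fed samples. In pair-fed samples these shares were 7.86% and 13.5%.

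Calls near the threshold depended on single arrays. The call of Itga4 in alcohol-fed samples was lost without any 1 of alcohol-fed arrays 1, 2, 3, 5, 6 and 7 or pair-fed arrays 1 and 5 (limma adjusted p 0.0515 to 0.121), with the values as deposited and with quantile normalization. That of Itgb2 was lost without alcohol-fed array 4 or 6 (0.064 to 0.0928) in alcohol-fed samples, and in pair-fed samples without any of 9 arrays, alcohol-fed 1, 2, 3 and 7 and pair-fed 1 to 5 (0.0544 to 0.133). That of Itgb7 in alcohol-fed samples was lost without array 5 (0.0638). That of Itgax in pair-fed samples was lost without array 1, 5, 6 or 7 (0.0728 to 0.122), and array 6 alone stood at -5.09 where the median was -1.45. Without array 6 the mean of Itgax was -0.88.

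**Figure D3:**
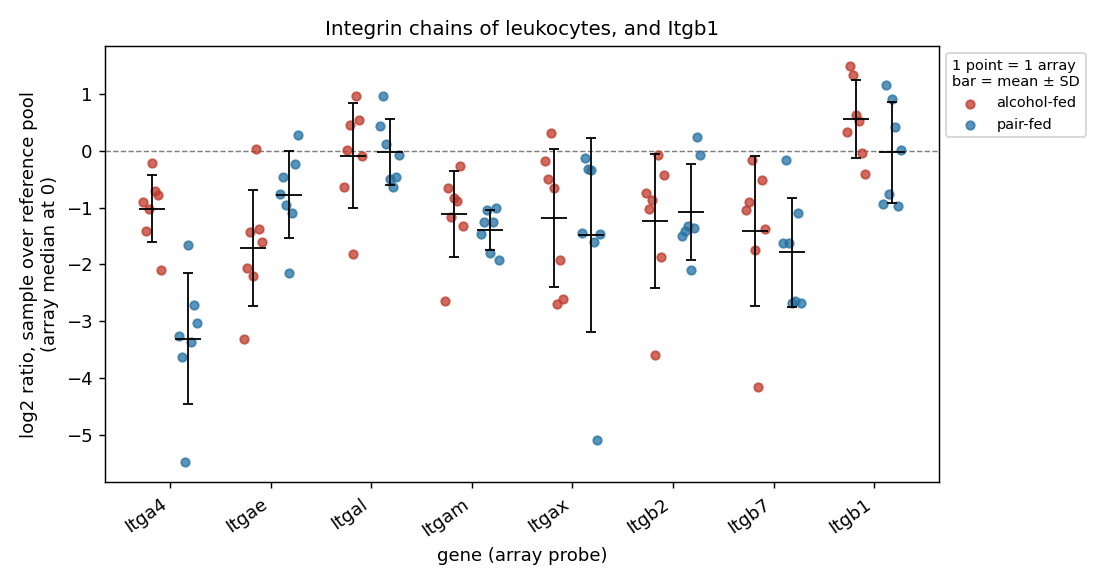
Log2 ratio (sample over reference pool, y axis) of integrin chains known from leukocytes, with the widespread Itgb1 for comparison (x axis), for each alcohol-fed and pair-fed array, with bars for the mean ± SD. Itga4 and Itgam are below 0 on all 14 arrays, Itgal and Itgb1 lie on both sides of 0, and Itgax has a single pair-fed array at -5.09.

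Itga9 was the only integrin called higher than the pool, in pair-fed samples alone at 1.38 ± 0.46 (SE; limma adjusted p = 0.0421), and stood at -0.90 ± 0.50 in alcohol-fed samples (0.192). Its call was lost without pair-fed array 3, 4, 6 or 7 (0.0571 to 0.115). The third Itgav probe was lower at -1.16 ± 0.35 and -2.37 ± 0.38 (adjusted p = 0.0262 and 0.000376, limma), and its alcohol-fed call was lost without alcohol-fed array 1, 3, 4 or 5 (0.0534 to 0.0694). The remaining 8 integrin alpha probes were called in neither comparison. Their means ran from -0.63 (Itga8) to 0.63 (Itga1) in alcohol-fed and from -0.09 (Itga3) to 0.35 (Itga1) in pair-fed samples. They included the fibronectin receptor chain Itga5 (0.41 ± 0.26 and 0.09 ± 0.26) and the muscle laminin receptor chain Itga7 (0.46 ± 0.31 and -0.07 ± 0.31).

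Itgb1, the beta chain shared by most matrix-binding integrins, ran from -0.41 over 0.52 to 1.50 in alcohol-fed and from -0.97 over 0.01 to 1.16 in pair-fed samples. Both groups lay on both sides of the reference and overlapped widely. Its means were 0.55 ± 0.32 and -0.03 ± 0.32 (SE), and its difference between the groups was 0.58 with a 95% interval of -0.37 to 1.53. The pair-fed mean turned to 0.08 with the values as deposited or with quantile normalization. Itgb3, the beta chain of platelet and osteoclast integrins, stood at -0.25 ± 0.31 and -0.59 ± 0.31, and Itgb4, the hemidesmosome chain that pairs with Itga6, at 0.20 ± 0.35 and -0.39 ± 0.35. The 5 beta probes called in neither comparison ran from -0.82 (Itgb6) to 0.71 (Itgb5) in alcohol-fed and from -0.59 (Itgb3) to 0.34 (Itgb5) in pair-fed samples.

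Cdh9, a type II cadherin of neurons, was the member farthest from the pool. It ran from 4.65 over 5.82 to 6.46 on the alcohol-fed arrays and from 4.67 over 5.57 to 6.54 on the pair-fed arrays. All 14 arrays were far above the reference, and the groups lay over each other. The means were 5.61 ± 0.31 and 5.65 ± 0.31 (SE), 48.9-fold and 50.2-fold (limma adjusted p = 5.51e-10 and 5.02e-10), and their difference was -0.04 with a 95% interval of -0.96 to 0.89.

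Cdh3, the P-cadherin of placenta and basal epithelium, was next and varied more. It ran from 1.99 over 4.85 to 6.33 in alcohol-fed and from 1.53 over 4.09 to 6.43 in pair-fed samples, with every array above the reference. The means were 4.54 ± 0.60 and 4.20 ± 0.60 (SE; limma adjusted p = 3.47e-05 and 9.12e-05), and the difference was 0.34 with a 95% interval of -1.46 to 2.13. Alcohol-fed arrays 2 and 3 and pair-fed arrays 2 and 5 were the lowest, between 1.53 and 2.23, and the other 10 arrays lay between 3.96 and 6.43.

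Cdh8, another neuronal type II cadherin, rose by 1.98 ± 0.36 in alcohol-fed and 2.50 ± 0.36 in pair-fed samples (SE; limma adjusted p = 0.000831 and 9.12e-05), from 0.14 over 2.12 to 3.29 and from 1.38 over 2.63 to 3.42. Cdh2, the N-cadherin of neural and mesenchymal cells, was higher by less and with the narrowest range of these genes. It ran from 0.42 over 1.12 to 1.46 and from 0.28 over 1.03 to 1.43, with means of 1.10 ± 0.24 and 1.03 ± 0.24 (adjusted p = 0.00316 and 0.00525, limma). Every array was above the reference for both genes. Of 7 measured genes of the neuron list, 0 rose and 1 fell (Gad2) in alcohol-fed samples, and in pair-fed samples 1 rose (Slc17a6) and 1 had probes in both directions (Gad2). The part of neuronal markers in the Cdh9, Cdh8 and Cdh2 values was not tested.

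Cdh1, the E-cadherin of epithelia, was lower in alcohol-fed samples. It ran from -4.17 over -1.94 to -0.74, below the reference on every array, with a mean of -2.13 ± 0.58 (SE; limma adjusted p = 0.0139). In pair-fed samples it ran from -4.05 over -1.48 to 2.55, with a mean of -1.13 ± 0.58 (adjusted p = 0.168, limma), and without pair-fed array 7, the highest, the test was passed (0.0251). The difference between the groups was -1.01 ± 0.82 (SE), and it was -0.67 without alcohol-fed array 5, -0.66 without pair-fed array 3 and -0.39 without pair-fed array 7. Of 9 measured epithelial markers, Cdh1 included, 5 fell and 0 rose in alcohol-fed samples and 3 fell and 0 rose in pair-fed samples. Cldn3, a tight junction protein of that list, stood at -2.89 ± 0.26 and -2.71 ± 0.26 (SE). The part of these markers in the Cdh1 values was not tested.

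Other cadherins below the pool were the second Cdh6 probe, Cdh16, Cdh24 and the second Cdh10 probe in both groups and Cdh18 in pair-fed samples. Cdh16, the kidney cadherin, ran from -2.68 over -2.04 to -1.61 in alcohol-fed and from -6.80 over -1.80 to 0.55 in pair-fed samples, so the pair-fed arrays were far more spread. Its means were -2.05 ± 0.54 and -2.26 ± 0.54 (SE; limma adjusted p = 0.0118 and 0.00701), and the pair-fed mean was -1.51 without pair-fed array 5. Cdh24 stood at -1.26 ± 0.38 and -1.71 ± 0.38 (adjusted p = 0.0243 and 0.00471, limma), and its alcohol-fed call was lost without alcohol-fed array 1, 2, 3 or 4 (0.0528 to 0.0656). Cdh18 stood at -1.73 ± 0.59 in pair-fed samples (adjusted p = 0.0451, limma) and at -0.74 ± 0.63 in alcohol-fed samples (0.407). Its call was lost without any of 8 arrays, alcohol-fed 1, 2 and 7 and pair-fed 1 to 5 (0.0529 to 0.123).

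The 12 cadherin probes called in neither comparison ran from -1.09 (Cdh6, first probe) to 0.62 (Cdh10, first probe) in alcohol-fed and from -1.45 (Cdh4) to 0.80 (Cdh5) in pair-fed samples. Among them Cdh5 stood at -0.77 ± 0.39 and 0.80 ± 0.39 (SE). Cdh4, the R-cadherin of the retina and brain, stood at -0.25 ± 0.48 and -1.45 ± 0.52, and the mesenchymal Cdh11 at 0.43 ± 0.32 and -0.13 ± 0.32. The muscle cadherin Cdh15 stood at -0.46 ± 0.28 and -0.69 ± 0.28.

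**Figure D4:**
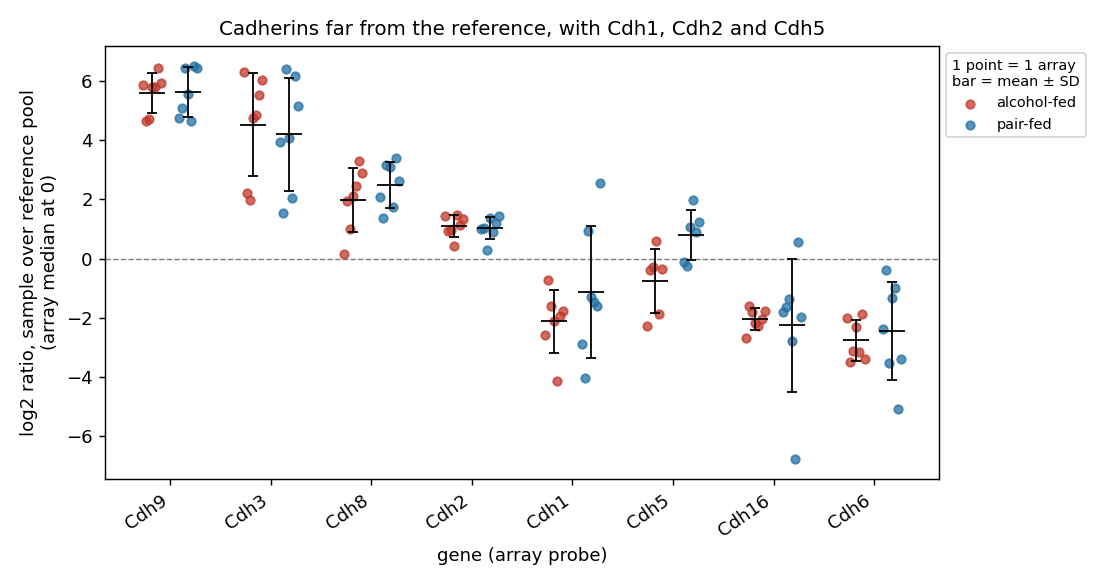
Log2 ratio (sample over reference pool, y axis) of cadherin probes far from the reference, with Cdh1, Cdh2 and Cdh5 (x axis; Cdh6 is its second probe), for each alcohol-fed and pair-fed array, with bars for the mean ± SD. Cdh9 lies between 4.65 and 6.54, Cdh3 spreads from 1.53 to 6.43, and Cdh16 has a pair-fed array at -6.80.

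Among the protocadherins outside the clusters, Pcdh7, the BH-protocadherin, was lower with little spread. Its first probe ran from -1.65 over -1.40 to -1.02 in alcohol-fed and from -2.18 over -1.28 to -1.14 in pair-fed samples, below the reference on all 14 arrays. The means were -1.34 ± 0.23 and -1.54 ± 0.23 (SE; limma adjusted p = 0.000607 and 0.000166). Pcdh12, the VE-cadherin-2 of endothelium and placental glycogen cells, was lower at -1.87 ± 0.35 and -1.73 ± 0.38 (adjusted p = 0.00137 and 0.00477, limma). Pcdh12 was below the reference on each array with a value, from -4.54 over -1.59 to -0.94 and from -2.12 over -1.84 to -1.05.

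Endothelial markers were measured beside Pcdh12. Of 10 measured genes of that list, 4 fell in alcohol-fed samples (Vwf, Esam, Tie1 and Emcn) and 2 fell in pair-fed samples (Esam and Tie1), with 0 rising. The median of the list's probes on single arrays ran from -0.86 to -0.35 and from -0.95 to -0.10. Their part in the Pcdh12 values was not tested. Pcdh17 was lower in pair-fed samples at -1.98 ± 0.59 (SE; limma adjusted p = 0.0235) and stood at -1.60 ± 0.59 in alcohol-fed samples (0.0551), and its call was lost without pair-fed array 3, 4 or 7 (0.0525 to 0.083). Pcdh18 was higher in pair-fed samples at 0.87 ± 0.30 (adjusted p = 0.0455, limma) and stood at 0.62 ± 0.30 in alcohol-fed samples (0.132). Its call was lost without any 1 of 11 arrays, all but alcohol-fed 5 and 6 and pair-fed 1 (0.0502 to 0.106).

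The 18 clustered protocadherins, all of the alpha, beta and gamma clusters, had 1 higher and 4 lower calls in alcohol-fed samples (27.8%, beside 23.5% of all probes) and 1 higher and 2 lower in pair-fed samples (16.7%, beside 21.3%). Pcdhb20 was the lowest of them in pair-fed samples. It ran from -3.85 over -1.19 to -0.40 in alcohol-fed and from -5.82 over -2.28 to -1.38 in pair-fed samples, below the reference on all arrays, with means of -1.68 ± 0.51 and -3.11 ± 0.51 (SE; limma adjusted p = 0.0241 and 0.000333). Its neighbour Pcdhb21 was higher, at 0.89 ± 0.29 and 0.96 ± 0.29 (adjusted p = 0.0354 and 0.0276, limma). Pcdhb16 was lower at -0.94 ± 0.27 and -0.88 ± 0.27 (adjusted p = 0.0201 and 0.0306, limma), and its calls were lost without alcohol-fed array 1 or 6 (0.057 to 0.0586) in alcohol-fed samples and without pair-fed array 4, 5 or 7 (0.0616 to 0.0965) in pair-fed samples. Probes of these genes may pick up transcripts of near-identical copies, since cluster members share long stretches of sequence, and probe sequences were not used here.

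Pcdhb7 and Pcdhb3 were lower in alcohol-fed samples, at -1.68 ± 0.35 and -1.15 ± 0.34 (SE; limma adjusted p = 0.00279 and 0.0224), and stood at -0.12 ± 0.38 and -0.13 ± 0.34 in pair-fed samples. The call of Pcdhb3 was lost without alcohol-fed array 3, 4 or 7 (0.0507 to 0.0764), and that of Pcdhb20 in alcohol-fed samples without array 4 or 5 (0.0711 to 0.0788). The calls of Pcdhb21 were lost without alcohol-fed array 1, 2, 3, 4, 6 or 7 (0.0599 to 0.0814) in alcohol-fed samples and without pair-fed array 2, 5, 6 or 7 (0.0686 to 0.0757) in pair-fed samples. The 18 protocadherin probes called in neither comparison ran from -0.91 (Pcdhb4) to 0.65 (Pcdhb8) in alcohol-fed and from -1.64 (Pcdha6) to 1.28 (Pcdha7) in pair-fed samples. Pcdha7 had only 4 and 5 arrays with a value and the widest error, 1.19 and 1.06 (SE).

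Probes of Itgav, Cdh10 and Pcdh8 did not share a sign. For Itgav the third probe stood at -1.16 and -2.37 in alcohol-fed and pair-fed samples, while the first stood at 0.10 ± 0.33 and 0.34 ± 0.33 (SE) and the second at -0.40 ± 0.29 and 0.05 ± 0.29. For Cdh10 the second probe was lower at -1.14 ± 0.26 and -1.39 ± 0.26 (limma adjusted p = 0.00509 and 0.00118), while the first stood at 0.62 ± 0.39 and 0.48 ± 0.39 and the third at 0.15 ± 0.29 and -0.19 ± 0.29. Averaging each gene's probes ended the calls of Itgav (adjusted p = 0.216 and 0.224, limma) and Cdh10 (0.705 and 0.245).

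For Cdh6 the second probe was lower at -2.77 ± 0.44 and -2.45 ± 0.44 (SE; limma adjusted p = 0.000267 and 0.000905), and the first had the same sign at -1.09 ± 0.44 and -0.81 ± 0.44 without a call. For Pcdh7 the second probe stood at -1.22 ± 0.46 (not called) and -2.05 ± 0.50 (adjusted p = 0.00874, limma), of one sign with the first. For Pcdh8 the second probe was higher in alcohol-fed samples at 0.79 ± 0.26 (adjusted p = 0.035, limma), while the first stood at -0.32 ± 0.45. In pair-fed samples the second stood at 0.24 ± 0.26 and the first at -0.23 ± 0.45, neither of them called. That Pcdh8 call was lost without alcohol-fed array 3, 4, 5 or 7 (0.0691 to 0.114) and when the probes were averaged (0.585).

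**Figure D5:**
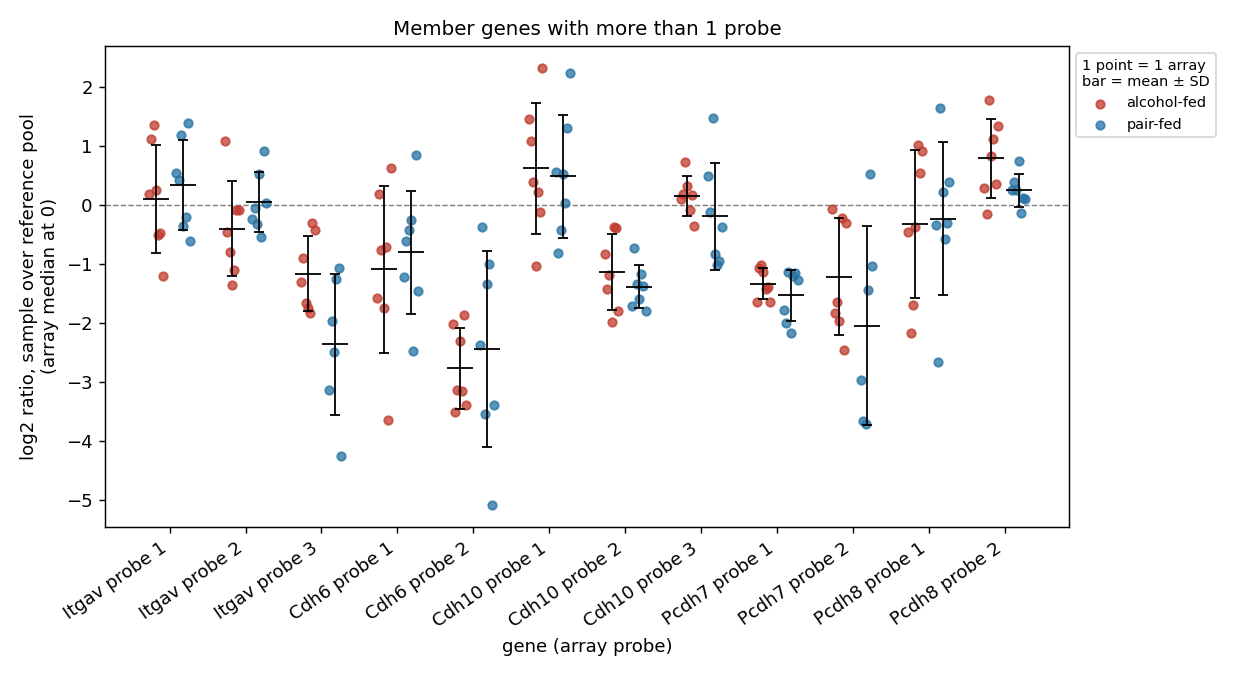
Log2 ratio (sample over reference pool, y axis) of the 12 probes of the 5 member genes with more than 1 probe (x axis), for each alcohol-fed and pair-fed array, with bars for the mean ± SD. The third Itgav probe and the second Cdh10 probe are below 0 on each array with a value, while the other probes of these genes lie on both sides of 0.

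Many member genes lie next to another member on the chromosome, in 15 neighbouring pairs by RefSeq gene order, and 21 of the 67 genes are on chromosome 18. Cdh3 and Cdh1 on chromosome 8 stood at 4.54 and -2.13 in alcohol-fed and at 4.20 and -1.13 in pair-fed samples. On chromosome 15 Cdh9, at 5.61 and 5.65, lies between Cdh6 and Cdh10, whose probes ran from -2.77 to 0.62 and from -2.45 to 0.48. On chromosome 13 Itga2 stood at -2.12 in both groups and its neighbour Itga1, which pairs with the same beta chain, at 0.63 and 0.35. Itgam and Itgax on chromosome 7 both stood below 0, at -1.11 and -1.18 in alcohol-fed and -1.39 and -1.49 in pair-fed samples.

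Genes that work with the members showed calls in both directions, and 0 of these lists' genes were called between alcohol-fed and pair-fed samples. Over all probes 8.02% were higher and 15.5% lower in alcohol-fed samples, and 7.86% and 13.5% in pair-fed samples. Of 21 measured integrin ligands, 2 rose (Col4a1 and Fn1) and 4 fell (Lama1, Lama3, Tnc and Vwf) in alcohol-fed samples, and 0 rose and 2 fell (Lama1 and Lama3) in pair-fed samples. In alcohol-fed samples another probe of Lama3 (0.75), Vwf (0.28), Fn1 (0.05) and Tnc (-0.10) was not called. Lama1, a basement membrane laminin chain, stood at -1.50 ± 0.28 and -1.20 ± 0.30 (SE; limma adjusted p = 0.00114 and 0.00971) on one probe and at -1.81 ± 0.41 and -1.62 ± 0.41 on the other. Vcam1, the Itga4 ligand, stood at -0.81 ± 0.53 and -1.22 ± 0.53 (adjusted p = 0.273 and 0.109, limma).

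Of 14 measured integrin adaptors, 1 rose (Ilk) and 3 fell (Tln2, Parva and Pxn) in alcohol-fed samples, and 1 rose (Lims1) and 4 fell (Tln2, Parva, Flna and Zyx) in pair-fed samples. In alcohol-fed samples another probe of Pxn (0.62) was not called. Parva, which links Ilk to actin, stood at -2.17 ± 0.29 and -2.31 ± 0.29 (SE; limma adjusted p = 3.84e-05 and 2.12e-05). Between the groups a probe of Flna, the actin crosslinker filamin A, differed by 2.42 ± 0.72 (adjusted p = 0.9996, limma), and its other probe by 0.70 ± 0.62.

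Of 16 measured catenins and cadherin partners, 1 rose, 3 fell and 1 had probes both ways in alcohol-fed samples, and 2 rose, 2 fell and 1 had probes both ways in pair-fed samples. Jup, the plakoglobin that binds cadherin tails at adherens junctions and desmosomes, stood at 5.85 ± 0.46 and 5.18 ± 0.46 (SE; limma adjusted p = 5.4e-08 and 2.83e-07). Nectin2, an adhesion molecule of the same junctions, stood at -3.94 ± 0.40 and -3.47 ± 0.40 (adjusted p = 1.39e-06 and 7.16e-06, limma). The gene with probes both ways was Ctnnd1, the p120 catenin, at 1.08 ± 0.30 and -2.39 ± 0.50 in alcohol-fed samples. Of 16 measured cadherin superfamily genes outside the members, 2 rose (Dsc3 and Cdhr5) and 1 fell (Dsg2) in alcohol-fed samples, and 1 rose, 3 fell and 1 had probes both ways in pair-fed samples. Of 5 further genes with integrin-like symbols, 1 rose (Itgb3bp) and 1 fell (Itgb1bp2) in each group.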

How the data were processed

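The authors deposited a table of log2 ratios for 21582 probes on each array. Their log2 scale, centring and direction are inferred from the numbers and the channels, as no label states them. How the arrays were scanned, background-corrected and normalized is not given here. RNA was labelled with Cy5 (sample) and Cy3 (pool), per the labels' protocols.

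Values of 0 and of 16.61, the highest in the table, were set to missing and each array was centred on its median. Probes with values on at least 4 arrays per group were tested (20876; 706 left out) in 1 fit of all 14 arrays with limma 3.58.1 in R 4.3.3 (lmFit, eBayes, two-sided, Benjamini-Hochberg over all probes, call under 0.05). Printed errors are limma standard errors. A group's mean was tested against 0 because the pool is control RNA, counted as 1 control sample. No 2 arrays shared over 0.287% identical values, so each counted as 1 replicate. Symbols come from the platform annotation, matched to RefSeq of GRCm38.p6.

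The members and the gene lists were chosen with earlier results of these data known. Named are the 10 member probes with the smallest p between the groups, the 2 with the smallest p of each class, up to 5 called members per class and direction against the reference, 8 integrins and cadherins whatever their values, and genes with several probes. Itga5, Itga6, Itga7, Itgal, Cdh11, Cdh15 and Pcdhb16 and the extremes of uncalled probes were added after their values were seen. The muscle, mesenchyme and liver lists gave 0 calls between the groups. Against the reference, alcohol-fed then pair-fed, muscle had 1 and 1 genes higher and 3 and 2 lower of 6, mesenchyme 1 and 1 higher and 1 and 1 lower of 7, and liver 0 and 0 higher and 1 and 2 lower of 7.

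On simulated data with 200 of 20876 probes changed, limma recovered 32.5% of 4-fold and 75% of 8-fold changes between the groups, and 61.5% and 69% of 4-fold changes in alcohol-fed and pair-fed samples against the reference. In the data the reference comparisons called 4913 and 4450 probes, far more than the 200 changed here. For these comparisons the cutoff for p was thus stricter in the simulation, and its recovery against the reference does not describe the real tests. Between the groups the data called 0 probes, so there the simulated cutoff, with 200 changed probes, may have been looser. The simulated noise was also drawn as independent normal values, so the recovery between the groups does not describe the real test either. Alternatives were the scaling, filters, placeholders, array weights, robust eBayes, a replicate block, separate fits, averaged probes and each array left out.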

Additional observations from a re-analysis of the deposited data

Results flagged for a closer look

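In 5 of 88 groups examined, the 2 groups of each of 44 probes, 1 array lay far from the others of its group, where chance alone gives about 1 in 20. Pair-fed array 6 was the far one in 3 of them, at -4.529 for Pcdhb8, -5.088 for Itgax and -4.266 for Cdh24. It also had the most placeholder values, 3155. Alcohol-fed array 5 stood at -4.165 for Itgb7, and alcohol-fed array 1 at -4.544 for Pcdh12. No named probe had all arrays of one group above the reference and all of the other below it.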

How the results depend on the processing

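No setting moved a count of called members by over 1.5 times. Leaving out 1 array gave 0 to 0 calls between the groups. In alcohol-fed samples it gave 17 (without alcohol-fed array 4) to 29 (without pair-fed array 6), beside 17.3% and 25.6% of all probes. In pair-fed samples it gave 19 without pair-fed array 4, beside 15.8% of all probes. The highest count there was 26, without alcohol-fed array 5 or 6, beside 20.3% and 23.6% of all probes. The values as deposited gave 0, 18 and 21, beside 0%, 21.1% and 18.7% of all probes. Separate fits of each group gave 27 and 18, beside 25.3% and 13.7% of all probes. Leaving out the 3 arrays with most placeholders, chosen after seeing the data, gave 0, 22 and 22, beside 0%, 22.7% and 18.5% of all probes. The values as deposited and quantile normalization moved the median of all probes to 0.14 in alcohol-fed samples. With the replicate number as a block the counts were 0, 25 and 26, beside 0%, 23.6% and 21.3% of all probes. Same-numbered arrays correlated at -0.08 to 0.18, only 1 pair over 0.1, and 2 of 7 alcohol-fed arrays correlated best with their own number. Such correlations cannot show whether same-numbered animals were matched or handled together, so a pairing by number remains unknown.

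Of 1988 values of single probes (every called member, the differences with the smallest p, and 8 genes taken whatever their values), 1817 kept direction and side of the threshold, 144 lost a call, 2 gained one and 25 changed sign, all of the latter at uncalled values. Among calls against the reference, the values as deposited lost 12 (Itga4, Itga6, the third Itgav probe, Itgb2, Cdh24, Pcdhb16 and Pcdhb20 in alcohol-fed, and Itga6, Itgax, Itgb2, Pcdh17 and Pcdhb16 in pair-fed samples; limma adjusted p 0.0534 to 0.177). Separate fits lost 9 (0.0537 to 0.089) and leaving out the 3 arrays with most placeholders 10 (0.0526 to 0.236), Itga6, Itga9, Itgax and Pcdhb16 in pair-fed samples among both. Quantile normalization lost 5 (Itga4 and Itga6 in alcohol-fed, Itga6, Itgax and Itgb2 in pair-fed samples; 0.054 to 0.0764), and array weights 4 in pair-fed samples (Itga6, Itga9, Itgax and Pcdh18; 0.0714 to 0.0954). Averaging all probes of Itgav gave 0.0051 between the groups, where its first and second probe alone were below 0. The same average was -0.49 in alcohol-fed and -0.49 in pair-fed samples. Leaving out 1 array gave the first Itgav probe -0.11 to 0.32 in alcohol-fed samples and the second -0.10 to 0.14 in pair-fed samples. It gave Itgb1 -0.22 to 0.13 in pair-fed samples, and between the groups Itgb2 -0.35 to 0.24 and Cdh2 -0.058 to 0.18. Array weights gave the second Itgav probe -0.048 and Itgb1 0.019 in pair-fed samples and Itgb2 0.17 between the groups. Without the 3 arrays with most placeholders these were -0.13, 0.16 and 0.42, and Itgb3 stood at -0.014 between the groups. Itgb1 in pair-fed samples stood at 0.082 as deposited and 0.083 with quantile normalization. The causes were not tested.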
